A study of Arabidopsis thaliana with 13 samples.

Results

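MIR858a, MIR858b and MIR828 are the miRNA loci of *Arabidopsis thaliana* whose mature products pair with R2R3-MYB transcripts of flavonoid and anthocyanin metabolism. They were chosen by name (ath-MIR858a, ath-MIR858b and ath-MIR828) as 3 of the 325 miRNA genes in the deposited table of expression values. The plants were pAP1:AP1:GR ap1 cal in the Landsberg ecotype, in which the AP1 promoter drives AP1 fused to the hormone-binding domain of the glucocorticoid receptor, and dexamethasone (DEX) starts flower formation in synchrony. Small RNA was sequenced from seedlings and from inflorescences. The seedlings (n = 3) were of the same genotype, at the vegetative stage and not treated. Inflorescences were harvested before treatment on day 0 (n = 2), and after 2 (n = 3), 4 (n = 2) and 8 days (n = 3) of daily DEX. Every group carries the ap1 and cal mutations and the transgene, so no library shows wild-type flowers, and DEX exposure and developmental age rise together without a DEX control at each age.

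In plants, a miRNA guides ARGONAUTE to transcripts with near-perfect complementarity, which are then cleaved or held back from translation. miR858 is known for repressing MYB activators of flavonol synthesis, pigments that build up in floral tissue and pollen. miR828 is known for cutting both MYB transcripts and the noncoding transcript TAS4, which is then turned into trans-acting siRNAs against further anthocyanin MYB genes.

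The mature sequences were read from the RefSeq annotation of TAIR10.1, a Columbia genome, and are shown because the target pairing and the counting of both MIR858 loci follow from them. Capitals mark the seed, bases 2 to 8.

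miR858a: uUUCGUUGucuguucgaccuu
miR858b: uUCGUUGUcuguucgaccuug
miR828: uCUUGCUUaaaugaguauucca

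miR858a and miR858b share a run of 20 bases, uucguugucuguucgaccuu, which begins at base 2 of miR858a and at base 1 of miR858b. The miRNAs are therefore the same sequence shifted by 1 base, and their seeds are not the same 7 letters. miR828 has a length of 22 bases against 21 for both miR858 forms, and its seed is shared with neither.

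MIR858a (AT1G71002) lies at chr1:26773539-26773725 on the minus strand, over 187 bases that overlap no other annotated gene. MIR858b (AT1G09213) lies at chr1:26772633-26772935 on the plus strand, over 303 bases. The pair is 603 bases apart on opposite strands, in the stretch between AT1G71000 and FAB1C. MIR858b overlaps the antisense long noncoding RNA AT1G09207 (chr1:26772596-26772881), but its mature sequence (chr1:26772907-26772927) lies outside that overlap. MIR828 (AT4G27765) lies at chr4:13846971-13847161 on the plus strand, 224 bases from FEY and 387 bases from ACBP2, and overlaps no annotated gene.

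The whole precursor of MIR858a and the last 100 bases of that of MIR858b (bases 204 to 303) are given with the mature sequence in capitals, to show that it sits at opposite ends of the hairpin.

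MIR858a precursor: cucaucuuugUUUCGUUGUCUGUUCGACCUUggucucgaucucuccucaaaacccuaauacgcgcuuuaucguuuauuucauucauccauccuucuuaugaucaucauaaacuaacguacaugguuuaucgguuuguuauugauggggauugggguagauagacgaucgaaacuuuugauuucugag
MIR858b precursor, last 100 bases: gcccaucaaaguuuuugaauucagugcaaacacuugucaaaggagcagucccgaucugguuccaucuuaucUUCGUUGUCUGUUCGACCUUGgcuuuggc

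The mature sequence occupies bases 11 to 31 of 187 in MIR858a and bases 275 to 295 of 303 in MIR858b. The best local alignment of these precursors covers 31 columns, of which 28 are identical (90.3%), and it hardly reaches beyond the mature sequence.

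This identity bears on what the table can count. The full miR858a sequence occurs at 1 genomic place, whereas the full miR858b sequence occurs at 2, MIR858b itself and MIR858a. A miR858a molecule that lacks its first base also matches both loci. STAR's gene counts use uniquely mapped reads, so an exact miR858b read counts for neither locus. Reads that match both loci are thus left out of both values, and how much this lowers MIR858a and MIR858b was not tested. The matches given here are exact, and whether reads aligned over part of their length also match both loci was not tested. The miR858b sequence with 1 further base at its 3′ end also matches both loci. With 1 further base at its 5′ end it matches MIR858b alone. The miR828 sequence occurs at 1 place.

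**Figure D1:**
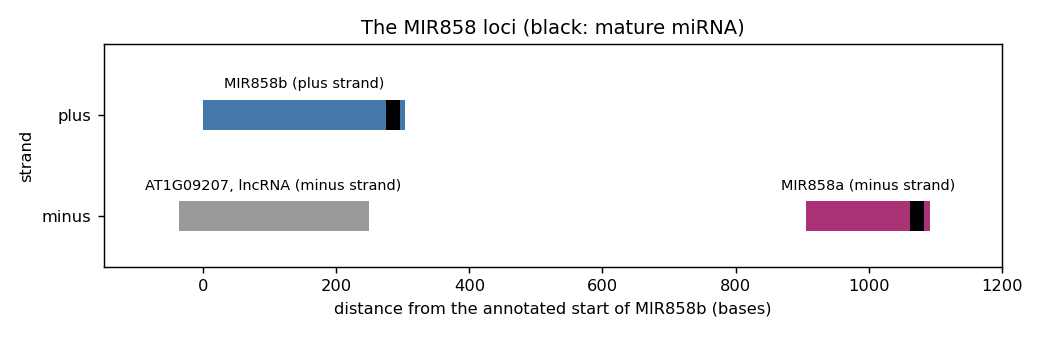
Annotated extent of MIR858b, MIR858a and the lncRNA AT1G09207 on each strand, as distance in bases from the annotated start of MIR858b, with mature miRNAs in black. The MIR858 loci are 603 bases apart on opposite strands, and the mature miR858b lies outside the lncRNA.

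Depth was estimated at 926300 to 2142752 mapped reads for the inflorescence libraries and 148673 to 366691 for the seedling libraries, with 118 to 140 and 62 to 79 miRNA genes above 0. Values are RPM, the reads of a locus scaled to 1000000 mapped reads, and read numbers were estimated from the smallest step between low RPM values. The labelled tissues were checked by the miRNAs of phase change. The summed miR156 and miR157 loci, which mark vegetative growth, gave 14.1 to 51.7 RPM across inflorescence libraries, against 259 to 362 RPM across seedling libraries. The summed miR172 loci, which mark the reproductive phase, gave 12.7 to 61.0 RPM across inflorescence libraries, and 2 of 3 seedling libraries had none. One of the day 2 libraries, replicate 1, carries a time label of 0 days beside its day 2 title and DEX label, and was kept with day 2. No replicate pair was as alike as sampling noise alone would give. The methods call the replicates biological, and the labels do not say whether they came from separate plants or harvests, so a p-value sets a change against the spread of these libraries.

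MIR858a was detected in 10 of 10 inflorescence libraries and in 0 of 3 seedling libraries, and its level at day 8 was about 2-fold that of every earlier stage. Over the inflorescence libraries it averaged 24.9 RPM, the 23rd highest of 209 miRNA genes above 0 there. On day 0 it was at 19.2 and 19.4 RPM (24 and 31 reads). On day 2 it was at 14.0, 19.1 and 20.5 RPM (30, 26 and 29 reads). On day 4 it was at 20.5 and 18.8 RPM (19 and 32 reads). The libraries of these 3 stages overlapped throughout, and the lowest of them was the day 2 library with the contradictory time label. On day 8 it was at 37.9, 40.5 and 39.3 RPM (44, 58 and 62 reads), above each of the other 7 inflorescence libraries.

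The means followed the order of 17.9 ± 3.40 RPM on day 2 (SD, n = 3), 19.3 ± 0.135 RPM on day 0 (SD, n = 2), 19.7 ± 1.21 RPM on day 4 (SD, n = 2) and 39.2 ± 1.30 RPM on day 8 (SD, n = 3). Neighbours among the first 3 did not differ beyond their spread. Exact 95% binomial (Clopper-Pearson) intervals, which cover counting error only, were wider than the spread of replicates. They ran from 27.5 to 50.9 RPM in day 8 replicate 1 and from 12.3 to 32.0 RPM in day 4 replicate 1, so single libraries overlapped in counting error where the groups did not overlap in value.

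**Figure D2:**
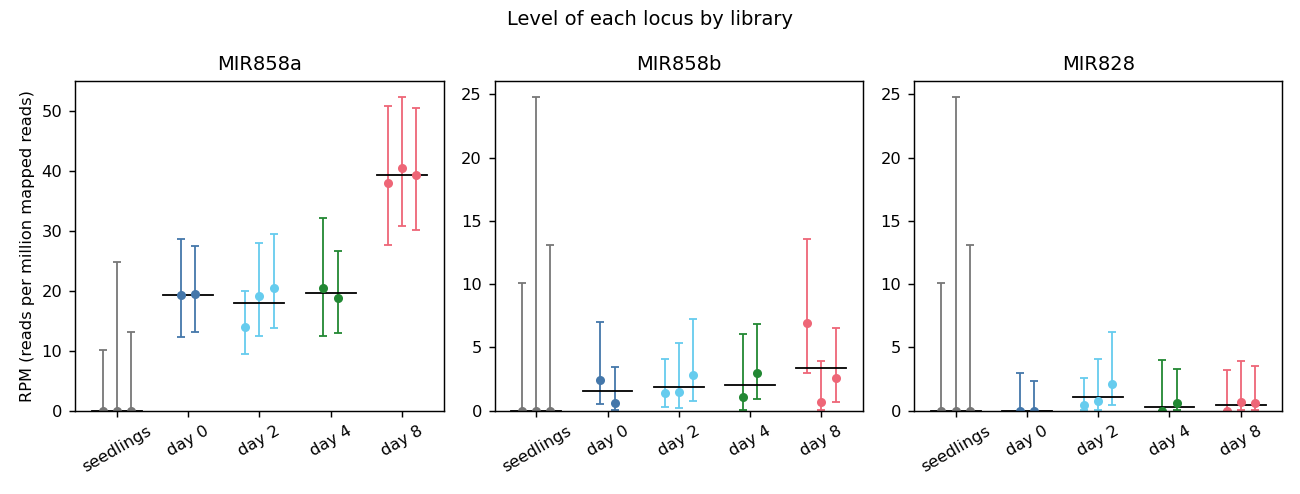
RPM of MIR858a, MIR858b and MIR828 in each library (points) with exact 95% counting intervals (bars) and group means (black lines), for seedlings and inflorescences of days 0, 2, 4 and 8 (vertical scales differ between panels). The day 8 libraries of MIR858a sit at 37.9 to 40.5 RPM, above all others, while MIR858b and MIR828 stay within 6.89 and 2.12 RPM.

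Stages were compared by limma on the scale of log2(RPM + 1), fitted to the 10 inflorescence libraries and adjusted over 137 miRNA genes. On day 8 against day 4, which were sequenced in the same run, MIR858a rose by 0.96 (log2, SE 0.27, 95% interval 0.40 to 1.52, adjusted p = 0.0149). In this comparison 14.6% of the genes tested were called in either direction and 11.7% as higher. This call was lost when either day 4 library or day 8 replicate 2 was left out (adjusted p = 0.070, 0.097 and 0.056), although the difference itself stayed at 0.90 to 1.02, with a lone day 4 library assumed to vary like the other stages. In the fit of all 13 libraries its adjusted p was 0.10.

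On day 8 against day 2, MIR858a rose by 1.11 (log2, SE 0.24, 95% interval 0.61 to 1.61, adjusted p = 0.000906), where 36.5% of genes were called and 23.4% as higher. This call held under all 20 alternatives, with adjusted p between 9.26e-05 and 0.0118. Without the day 2 library of contradictory time label the difference was 0.95. It also rose on day 8 against day 0, by 0.99 (log2, SE 0.27, adjusted p = 0.00767), where 28.5% of genes were called and 18.2% as higher. Without day 0 replicate 1 the adjusted p of that comparison was 0.054. Days 0 and 2 were sequenced in another run than days 4 and 8, so for these comparisons stage and run cannot be told apart.

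The earlier steps gave no call for MIR858a. Day 2 and day 0 differed by -0.12 (log2, 95% interval -0.68 to 0.44, adjusted p = 0.92), and 0% of genes were called in that comparison. Day 4 and day 2 differed by 0.15 (log2, 95% interval -0.41 to 0.71, adjusted p = 0.80), where 12.4% were called. Both signs turned when the day 2 library of contradictory time label was left out (0.03 and -0.01). Across the 4 stages the F test of limma gave an adjusted p of 0.00288 with a range of 1.11 on the log2 scale, one of the 27% of genes past the adjusted p of 0.05 and the 2-fold minimum. The 2-fold part of this call is narrow, since the range was under 1 with other scalings and without the day 2 library of contradictory time label (0.81 to 0.99), while the adjusted p stayed below 0.05.

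Against seedlings, where no MIR858a read was counted, the data give only an approximate lower limit of the difference. At the inflorescence levels, 15.4 reads at the day 0 mean and 31.3 reads at the day 8 mean would fall in the 797422 mapped reads of the seedling libraries, and 0 were seen. Over the pooled seedling libraries a count of 0 allows up to 3 reads, a limit of 3.76 RPM. The MIR858a mean was 5.13-fold this limit on day 0, 4.75-fold on day 2, 5.22-fold on day 4 and 10.4-fold on day 8. These folds carry no error of the inflorescence means, so they are not strict lower limits. The limma test of all 13 libraries gave an adjusted p of 1.59e-07 for day 0 and 7.92e-09 for day 8. Of 153 genes, 45.8% and 49.7% were called, 30.1% and 34.6% as higher than in seedlings. MIR858a was 0 in every seedling library and was tested through its inflorescence values alone, so it could only come out higher. Its day 0 estimate was 2.28 with a pseudocount of 5 RPM and 5.31 with 0.5 RPM (log2). These p-values are therefore not taken as support. Seedlings formed a sequencing run of their own and were shallower, so tissue and run cannot be told apart. In such bulk samples, fewer cells of a type and less RNA per cell cannot be told apart either.

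MIR858b was detected in the same 10 inflorescence libraries and in no seedling library, but at 1 to 8 reads. It was at 2.40 and 0.625 RPM on day 0, and at 1.40, 1.47 and 2.82 RPM on day 2. It was at 1.08 and 2.94 RPM on day 4, and at 6.89, 0.698 and 2.54 RPM on day 8. The highest and the second lowest inflorescence value both belong to day 8, and all stages overlapped. The means were 1.51 ± 1.25 RPM on day 0 (SD, n = 2), 1.90 ± 0.801 RPM on day 2 (SD, n = 3), 2.01 ± 1.31 RPM on day 4 (SD, n = 2) and 3.37 ± 3.18 RPM on day 8 (SD, n = 3), and neighbours in that order did not differ beyond their spread.

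No stage comparison of MIR858b passed the limma test. Day 8 and day 4 differed by 0.34 (log2, 95% interval -0.86 to 1.53, adjusted p = 0.82), day 8 and day 2 by 0.35 (-0.71 to 1.42, adjusted p = 0.65), and day 8 and day 0 by 0.62 (-0.57 to 1.82, adjusted p = 0.51). These intervals include both no change and the increase seen for MIR858a, so such an increase is neither shown nor excluded at this depth. Without day 8 replicate 1, the library with 8 reads, the first and the second of these differences turned to -0.22 and -0.21, and the third was 0.060. The third was 0.090 without day 0 replicate 2, 1.15 without day 0 replicate 1 and 1.17 without day 8 replicate 2. Against seedlings, day 8 passed the test (adjusted p = 0.0108), yet its mean of 3.37 RPM is below the seedling limit of 3.76 RPM and only 2.69 reads would have been seen there at this level. No fold is given for that reason.

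**Figure D3:**
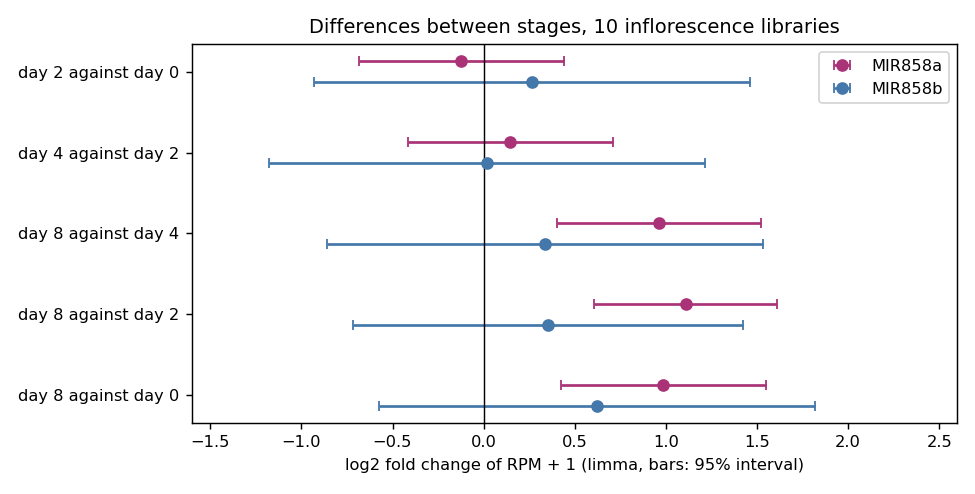
Difference in log2(RPM + 1) between stages of the 10 inflorescence libraries for MIR858a and MIR858b, as limma estimates (points) with 95% intervals (bars), positive where the later day is higher. The intervals of MIR858a lie above 0 for the 3 comparisons with day 8, and those of MIR858b include 0 throughout.

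Whether the neighbouring loci kept the same ratio was asked within each library. The log2 ratio of MIR858a to MIR858b, each with 1 RPM added, averaged 3.11 on day 0, 2.72 on day 2, 2.85 on day 4 and 3.47 on day 8. The stages did not differ by an exact permutation test of the sum of squares between stages over the 10 libraries (p = 0.731, 25200 arrangements). At 1 to 8 reads of MIR858b this does not show that both loci change alike. MIR858b held 1.69% to 15.4% of the summed MIR858 reads of a library, and these extremes came from the same stage, day 8. The reads counted at both loci summed to 42.6 RPM on day 8, against 21.7 RPM on day 4. Since reads that match both loci are in neither value, the sum, the ratio and these percentages do not cover all miR858. Per 100 bases of annotated locus, the mean inflorescence level was 13.3 RPM for MIR858a, 0.754 RPM for MIR858b and 0.274 RPM for MIR828. The mature products hardly differ in length, so these values also carry the annotated length and are not a better measure of level.

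MIR828 was at the edge of detection, with 8 reads in 6 of 10 inflorescence libraries and none in seedlings. It was at 0 in both day 0 libraries. On day 2 it was at 0.467, 0.735 and 2.12 RPM, on day 4 at 0 and 0.587 RPM, and on day 8 at 0, 0.698 and 0.634 RPM. All but 1 of these values rest on a single read or none, and the exception has 3 reads. MIR828 reached the minimum of 1 RPM in 1 library and so was not among the genes tested. In a limma fit without the minimum, over 209 genes, no stage comparison passed, and day 2 against day 0 gave 1.00 on the log2 scale with an adjusted p of 0.56. Over its group, a count of 0 on day 0 allows up to 1.05 RPM, which is close to the day 2 mean of 1.11 RPM, so a difference is neither shown nor excluded at this depth.

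The target genes of these miRNAs were described from sequence, since mRNA levels are not in the table. Transcripts of 36696 annotated genes were searched for sites by the score of TargetFinder, which adds 1 for a mismatch and 0.5 for a G:U pair, counts both 2 times over at miRNA bases 2 to 13, and was limited to 4. Of the genes searched, 125 (0.341%) carry a numbered MYB name. miR858a had sites in 14 genes, and 14 of them were MYB genes. miR858b had sites in 23 genes, 21 of them MYB genes, the others being the chloride channel gene CLC-B and MYBL2, a MYB repressor of anthocyanin synthesis without a number. Every one of these sites lies in coding sequence.

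The sites of flavonoid regulators and of 1 more MYB gene are shown for miR858a, with bases that form Watson-Crick pairs in capitals. These genes were picked from the 14 predicted for miR858a and do not stand for that set as a whole. MYB20, MYB42 and MYB83 are not shown and had the same score of 3 as MYB12, MYB111, TT2 and MYB13. MYB11, MYB12 and MYB111 activate flavonol synthesis, and TT2 (MYB123) activates proanthocyanidin synthesis in the seed coat.

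MYB12: cAGGgaGAACAGACAACGAAA
MYB111: cAGGaaGAACAGACAACGAAA
MYB11: cgGGaaGAACAGACAACGAAA
TT2: cAGGcCGAACAGACAAuGAAA
MYB13: cuGGaCGAACAGACAACGAAA

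They lie at chr2:19478416-19478436 (MYB12, plus strand), chr5:19999866-19999886 (MYB111, minus strand), chr3:23155629-23155649 (MYB11, plus strand), chr5:13727248-13727268 (TT2, plus strand) and chr1:1890638-1890658 (MYB13, plus strand). Mismatches gather at the 5′ end of the site, opposite the 3′ end of the miRNA, and the stretch opposite the seed is paired apart from a G:U pair in TT2. The 13 bases gaacagacaacga, which pair with bases 3 to 15 of miR858a, were looked for on the transcript strand alone and are present in 9 of 14 sites of miR858a and 16 of 23 sites of miR858b. Of all 36696 genes searched, 21 (0.0572%) hold this run, and 20 of those are numbered MYB genes.

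The shift of 1 base between the miR858 forms changed the predicted sets. They share 13 genes, 92.9% of those of miR858a and 56.5% of those of miR858b. MYB93 was found for miR858a alone. Among the genes found for miR858b alone are MYB37 (RAX1) and MYB84 (RAX3), which act in axillary meristem formation, and MYB80, which acts in the tapetum of anthers. At a stricter score of 3, both forms had the same 7 genes, so every gene found for 1 form alone scores above 3. Together the forms reach 22 of 125 numbered MYB genes (17.6%).

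**Figure D4:**
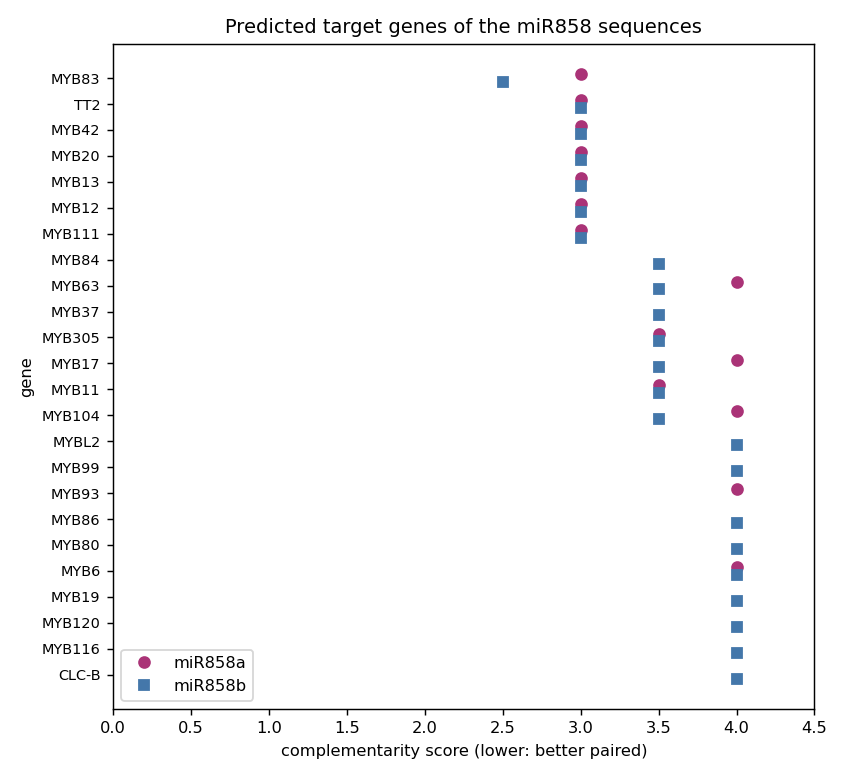
Complementarity score of the best site in each gene (lower is better paired) for miR858a and miR858b, up to the limit of 4. The best-scoring genes, MYB83, TT2, MYB42, MYB20, MYB13, MYB12 and MYB111, are shared, and most genes found for miR858b alone score 4.

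miR828 had sites in 4 genes, of which none was a predicted gene of miR858. Its best site is in TAS4 (AT3G25795), followed by MYB113, an activator of anthocyanin synthesis, and MYB82, which acts in trichome formation. These are shown with Watson-Crick pairs in capitals.

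TAS4: UGGAAUACUCAUUUgAGCAAGA
MYB113: UGGAAcACUCAUUUgAGuAAGA
MYB82: UGGAAUACUCAUUUgAaCAAGA

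TAS4 has 1 G:U pair and no mismatch over 22 bases. MYB113 has 1 mismatch and 2 G:U pairs, and MYB82 has 1 mismatch and 1 G:U pair. The sites lie at chr3:9417809-9417830 (minus strand), chr1:24754173-24754194 (plus strand) and chr5:21343460-21343481 (minus strand). AT3G60980, the remaining gene, is at the score limit of 4.

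Other miRNA loci were set beside the MIR858 and MIR828 loci by their targets. Of 9 loci of families that target MYB genes (miR159, miR319, miR828 and miR858), 8 were tested. MIR159 targets GAMYB-like genes, and MIR319 targets mainly TCP genes and some MYB genes. Of these, MIR858a rose and MIR319b fell on day 8 against day 4, where 11.7% of all genes were called higher and 2.92% lower, with a list median of 0.14 (log2) against 0.15 over all genes. On day 8 against day 2, 4 rose (MIR858a, MIR159c, MIR319a and MIR319c) and 2 fell (MIR159b and MIR319b), against 23.4% higher and 13.1% lower of all genes, with a list median of 0.39 against 0.20. MIR319b fell to 57.7 ± 10.5 RPM on day 8, against 2753 ± 262 RPM on day 2 (SD, n = 3 each), so the list did not move as a block. Day 2 and day 8 were sequenced in different runs, so for these changes stage and run cannot be told apart. Against seedlings, 7 of the 8 were higher on day 0, the exception being MIR858b, with a list median of 3.10 against 0.59 and 30.1% of all genes called higher. On day 8, 6 of the 8 were called higher than in seedlings (34.6% of all genes), the exceptions being MIR159b and MIR319b. The list median was 3.20 against 0.55. MIR858a and MIR858b were 0 in every seedling library and could only come out higher. The MIR858b mean of 3.37 RPM is also below the seedling limit of 3.76 RPM.

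Of 17 loci of families linked to flavonoids or anthocyanins (miR156, miR157, miR828 and miR858), 8 were tested between stages. In the comparison of day 8 with day 4, 3 rose (MIR858a, MIR157d and MIR156a) and none fell, against 11.7% higher and 2.92% lower of all genes. MIR156a was at 5.82 ± 5.46 RPM on day 8 (SD, n = 3), against 0.540 ± 0.763 RPM on day 4 (SD, n = 2). Its means on days 0, 2 and 4 were all under 1 RPM. It was thus tested mainly through its day 8 values and could hardly come out lower. MIR157d, which like its family targets SPL genes, was at 13.3 ± 2.08 RPM on day 8 (SD, n = 3), against 2.01 ± 1.31 RPM on day 4 (SD, n = 2), a rise of 2.31 (log2, adjusted p = 0.000361). MIR156b and MIR156d gave no call between these days (0.28 and 0.15 on the log2 scale). Against seedlings this list went mostly the other way on day 0, with 2 of 10 tested loci higher (MIR858a and MIR157d) and 5 lower. The lower loci were all of miR156 or miR157. Of all 153 genes, 45.8% were called, 46 higher and 24 lower. The list median was -1.41 (log2) against 0.59 over all genes. On day 8, 3 were called higher (MIR858a, MIR858b and MIR157d) and 5 lower than in seedlings, against 53 higher and 23 lower of all 153 genes. The list median was -1.37 against 0.55. The 3 higher loci were 0 in every seedling library, and MIR858b is below the seedling limit. MIR156f was again among the lower loci. Of the 4 triggers of trans-acting siRNAs, MIR828 was the lowest on average over inflorescences (0.524 RPM), behind MIR173 (235 RPM), MIR390a (11.5 RPM) and MIR390b (4.71 RPM). Of the 3 tested triggers, 0 were called on day 8 against day 4, where 14.6% of all genes were. MIR173 fell on day 4 against day 2 (-0.76 on the log2 scale, adjusted p = 0.0270 by limma, 12.4% of all genes called), and MIR390a rose on day 8 against day 0 (1.05, adjusted p = 0.0186, 28.5% called). These comparisons set libraries of different runs against each other, so stage and run cannot be told apart. On day 0 and on day 8, MIR173 and MIR390b were called higher than in seedlings, as were 30.1% and 34.6% of all genes. MIR390b was 0 in every seedling library and could only come out higher.

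The genes with the pattern most like that of MIR858a over all 13 libraries, by Pearson's r of log2(RPM + 1), were MIR159c (0.98), MIR319a (0.97) and MIR319c (0.97). Over the 10 inflorescence libraries alone r was 0.92 for MIR159c, 0.71 for MIR319c and 0.39 for MIR319a. MIR159c was at 743 ± 91.2 RPM on day 8 (SD, n = 3), against 551 ± 49.5 RPM on day 4 (SD, n = 2). The most alike of MIR858b were MIR5637 (0.89), MIR170 (0.85) and MIR860 (0.78), each listed at 0 in every seedling library. MIR858b ranked 30th for MIR858a (r = 0.78, and 0.27 within inflorescences). Libraries share run and depth in these values, so they are given as descriptions.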

How the data were processed

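Small RNA libraries of 10 inflorescence and 3 seedling samples were analysed. The authors trimmed reads with Trim Galore, mapped them with STAR to TAIR10, took STAR's count per miRNA gene and deposited RPM, reads per 1000000 mapped reads. For the miRNA reads the sources used here state no version of either tool. The methods speak of 3 biological replicates per sample, while the labels list 2 libraries each for days 0 and 4, which set n here. They also deposited RPM after quantile normalization (169 genes), used as an alternative only. In a further table, 3 columns belonged to no sample here and were not used.

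A deposited table gives the run once per block of libraries, and the libraries listed under it were taken as that run, on which any statement about runs rests. Reads were estimated from the RPM step of each library (tolerance 0.1), but 7 of 13 libraries had under 100 low values, so no count model was run. limma 3.58.1 (R 4.3.3, trend) was fitted to log2(RPM + 1), and fold changes are on this scale, which understates those of low genes. Genes with at least 1 RPM in at least 2 libraries were tested, with Benjamini-Hochberg adjustment over 137 genes (inflorescences) or 153 (all libraries) and a threshold of 0.05. The script was tested on simulated data.

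Sites were searched in RefSeq TAIR10.1 transcripts, best site per gene, without gaps. TAIR10 coordinates were not mixed in, since the table has none. The stranded column of STAR's counts that was used is not stated.

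Genes were named by rule: the 3 members, the 3 most alike of each tested member, and the 4 highest of each list. MIR156a, MIR156f and MIR159b were named after their values were seen. Members and lists were chosen with earlier results of these data known. Alternatives were other pseudocounts, filters, scalings, quantile values, no trend, 1 fit of 13 libraries, a replicate block, each library left out and, added after seeing the data, an F test over within-run steps.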

Additional observations from a re-analysis of the deposited data

How the results depend on the processing

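The increase of MIR858a on day 8 against day 2 kept direction and call under every alternative run. Its difference from seedlings on days 0 and 8 did so too, but with 0 in every seedling library its direction was fixed. On day 8 against day 4 the call was lost in the fit of all 13 libraries (0.96, adjusted p = 0.10) and with quantile values (0.74, adjusted p = 0.058), and leaving out libraries gave 0.90 to 1.02. On day 8 against day 0 it was lost in the fit of 13 libraries (0.99, adjusted p = 0.058), and leaving out libraries gave 0.96 to 1.01. The range across stages fell under 2-fold with a pseudocount of 5 (0.96), median-ratio (0.81), TMM (0.84) and quantile values (0.98) and over within-run steps (0.96, added after seeing the data), and was 0.99 to 1.21 with libraries left out. Uncalled differences turned sign: MIR858a on day 2 against day 0 with quantile values (0.039, and -0.22 to 0.034 with libraries left out) and on day 4 against day 2 with median-ratio scaling (-0.014, and -0.0094 to 0.25). MIR858b on day 4 against day 2 turned with median-ratio (-0.085) and TMM scaling (-0.060). With libraries left out MIR858b gave -0.26 to 0.80 on day 2 against day 0, -0.44 to 0.48 on day 4 against day 2, -0.22 to 0.88 on day 8 against day 4, -0.21 to 0.90 on day 8 against day 2 and 0.060 to 1.17 on day 8 against day 0. Its call on day 8 against seedlings was lost with quantile values (1.17, adjusted p = 0.070). MIR858b has no value at a minimum of 10 RPM. At a score limit of 3, miR858a and miR858b each had 7 predicted genes, in place of 14 and 23. With TMM the median of all genes on day 8 against day 2 was 0.01, in place of 0.20, and the calls were 26 higher and 23 lower, in place of 32 and 18, with MIR858a at 0.84. Calls on day 8 against day 0 were 16 higher and 14 lower, in place of 25 and 14. Same-numbered replicates did not deviate together (r over 0.1 in 2 of 13 pairs), and a replicate block changed no call (MIR858a on day 8 against day 4: 0.91, adjusted p = 0.0329). Depth limits MIR858b and MIR828 most, at 1 to 8 and 0 to 3 reads a library.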
